A study of Mus musculus with 12 samples.

Results

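Cadherins and protocadherins were followed through 60 min of calcium disturbance in cultured mouse cortical glia. The genes were taken from the deposited count table as protein-coding rows whose symbol was Cdh followed by a number, or began with Pcdh, and whose counts summed to at least 120 over the 12 libraries. Of 43322 genes in the table, 92 had such a symbol and 79 reached that sum. They comprised 14 Cdh genes, 10 protocadherins outside the gene clusters, and 14, 20 and 21 genes of the Pcdha, Pcdhb and Pcdhg clusters. Of the 79, 57 lie on chromosome 18. The rule itself used symbol, biotype and summed counts. The classical cadherins proper were only 10 of these genes, namely the type I genes Cdh2 and Cdh4 and the type II genes Cdh6, Cdh10, Cdh11, Cdh18, Cdh19, Cdh20, Cdh22 and Cdh24. The other Cdh genes were Cdh13, Cdh17, Cdh23 and Cdh26. Just inside the limit lay Pcdhb13, with 179 counts in all libraries together, Pcdhb15 with 191 and Pcdhb10 with 203. Just outside it lay Cdh8 with 116 counts, Cdh1 with 106 and Pcdhb12 with 100.2.

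The libraries came from poly-A RNA of glial cells of the frontal cortex of wild-type CD1 mice aged 3 to 5 postnatal days, which the labels call primary cultured astrocytes and which were used 3 to 7 days after splitting. The 3 groups had 4 libraries each: cells given vehicle, cells given thapsigargin at 3 µM, and cells in EGTA-containing medium without calcium, the treatments lasting 60 min. Thapsigargin blocks the pumps that fill the endoplasmic reticulum with calcium, and EGTA is a chelator that binds calcium outside the cell. Each culture was started from 1 mouse. The series text calls the samples of a group biological replicates, but does not say which libraries share a mouse. The cultures are a mixture of cortical glia made in serum and growth factor, with no sort for a cell type described in the labels.

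Library totals ran from 36.2 to 42.6 M counts, and 17077 genes were tested. Astrocyte markers summed to 10787 to 12758 CPM in control libraries, where CPM is counts scaled to 1000000 of the normalised library total. Endothelial markers summed to 10.3 to 17.9 CPM. Replicate 4 of each group stood apart from the other 9 libraries: 11.1% of all tested genes lay above and 12.3% below every one of those 9 in all 3 libraries with that number. Cadherin and protocadherin results are therefore given with replicate number as a block, or without replicate 4, where this changes a call. In bulk RNA, fewer cells of a type and less RNA per cell cannot be told apart.

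Classical cadherins join neighbouring cells through extracellular repeats that are stiff only when calcium is bound between them. Their cytoplasmic tails bind p120 and beta-catenin, and alpha-catenin ties that complex to actin. Removing calcium outside the cell loosens such contacts, which is the oldest known property of the family. Protocadherins have more repeats and no catenin-binding tail. The clustered genes each add their own first exon to constant exons shared by the cluster, and their proteins recognise like proteins on other cells. In astrocytes N-cadherin and gamma-protocadherins sit at contacts with other astrocytes and with neurons.

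Transcripts of Pcdhgc3 and Cdh2 stood far above the rest in control cells. Levels between genes were compared as CPM per kilobase of summed exon length. Pcdhgc3, a C-type gamma-protocadherin, had 130.2 ± 4.59 CPM per kb (SD, n = 4). N-cadherin (Cdh2) had 85.9 ± 1.47. The next genes were Cdh11, a cadherin of mesenchymal cells and bone, at 22.0 ± 0.249, R-cadherin (Cdh4) at 21.6 ± 1.59, the type II gene Cdh20 at 21 ± 2.22, and Pcdhgc5 at 18.5 ± 3.79. Gamma rows contain counts common to the whole cluster, and 93.8% of the Pcdhgc3 row but 56.8% of the Pcdhgc5 row lay above that common part, so the place of Pcdhgc5 rests in part on shared counts. The control libraries of Pcdhgc3 lay above all those of Cdh2, and those of Cdh2 above all those of Cdh11. Cdh11, Cdh4, Cdh20 and Pcdhgc5 overlapped from each to the next and could not be ordered.

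Outside the clusters the levels fell through Pcdh10 (13.5 CPM per kb), Pcdh7 (7.44), Pcdh1 (7.27) and Cdh22 (7.05) to Cdh23, a tip-link cadherin of hair cells, at 0.0728. Of the 23 neighbouring pairs in this order, 9 did not overlap between control libraries. Pcdh9 came last but one at 0.114 CPM per kb, although its 17.7 ± 1.73 CPM exceeded that of Pcdh18 at 14.6 ± 0.582 (SD, n = 4). The table gives Pcdh9 a summed exon length of 155391 bases, so its place in the order rests on that length. Cadherins that mark epithelium and vessels were close to absent: Cdh1 (E-cadherin) lay between 0.111 and 0.435 CPM over the 12 libraries and Cdh5 (VE-cadherin) between 0 and 0.320.

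**Figure D1:**
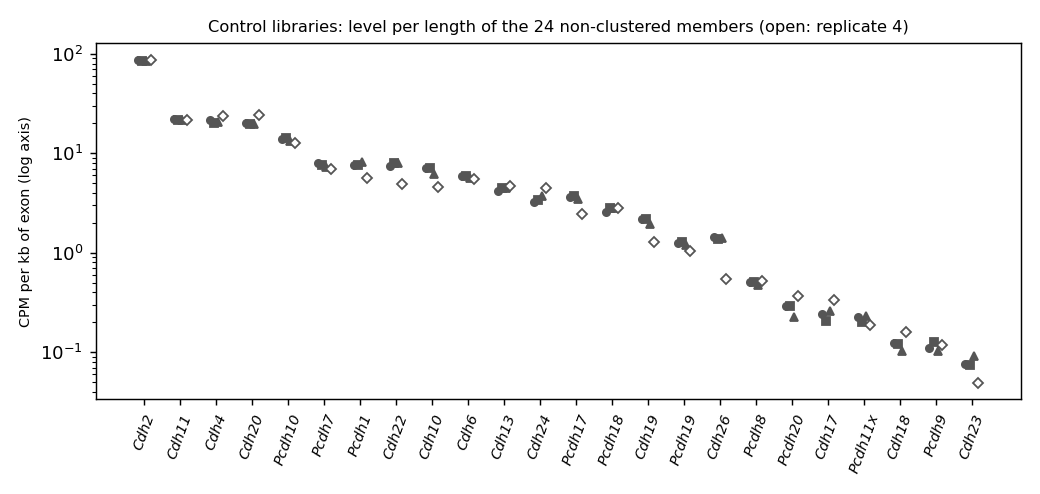
Level per length of the 24 cadherins and protocadherins outside the clusters in the 4 control libraries. The vertical log axis is CPM per kilobase of summed exon, each point is 1 library and open points are replicate 4; Cdh2 stands alone at 85.9 CPM per kb on average, and Cdh11, Cdh4 and Cdh20 overlap near 21 to 22.

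With thapsigargin N-cadherin, Cdh11, T-cadherin, Pcdh7, Pcdh10 and a group of gamma-protocadherin rows led by Pcdhgc3 fell by small amounts. Of the 79 genes, 17 fell and 0 rose (edgeR quasi-likelihood test, adjusted p under 0.05; Benjamini-Hochberg over all tested genes). Over all tested genes 14.8% fell and 16.4% rose, and 21.5% of these genes fell, a share near the general one in this fit. The all-gene balance turned with scaling, from 2800 higher and 2531 lower here to 2609 and 3241 with upper-quartile scaling. By set, 3 of 14 Cdh genes, 2 of 10 non-clustered protocadherins, 0 of 14 Pcdha, 2 of 20 Pcdhb and 10 of 21 Pcdhg rows fell. At an unadjusted p under 0.05, 27 of the 79 were lower and 0 higher, and DESeq2 called 15 lower and 0 higher (14% and 18.2% of all genes). The median log2 fold change was -0.21, against -0.047 over all tested genes, and 76 of the 79 estimates were negative. With replicate number as a block 40 fell and 1 rose (28.2% and 23% of all genes), and without replicate 4 34 fell and 1 rose (21.2% and 24.4%). With the block the lower genes were 7 Cdh genes, 4 non-clustered protocadherins, 1 Pcdha, 7 Pcdhb and all 21 Pcdhg rows. Leaving out control replicate 1 or 2 gave 11 or 10 lower, leaving out control replicate 4 gave 26, and testing without the filter on low counts gave 7. In 13 of the 79 genes every thapsigargin library lay below every control library, against 15.1% of all genes, and in 0 above, against 16.7%.

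N-cadherin, encoded by Cdh2 (GRCm39 chromosome 18, 16721934 to 16942303, minus strand), is the cadherin of neural adherens junctions. It had 876, 849, 842 and 858 CPM in the 4 control libraries and 766, 774, 781 and 762 CPM with thapsigargin. Every treated library lay below every control library. The log2 fold change was -0.15 ± 0.033 (SE; edgeR adjusted p = 0.00352), a change to 0.90 times the control level. The call was lost only without the filter on low counts, among the settings tried. The other type I gene, Cdh4, had 184 ± 13.6 CPM in control and 172 ± 16.8 with thapsigargin (SD, n = 4), and the groups overlapped. This gave a log2 fold change of -0.10, with a 95% interval of -0.29 to 0.087 (adjusted p = 0.427).

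Among type II genes Cdh11 (chromosome 8, 103358727 to 103512125, minus strand) fell. Its libraries read 139, 136, 135 and 136 CPM in control and 119, 121, 126 and 117 with thapsigargin, with no overlap. The log2 fold change was -0.18 ± 0.033 (adjusted p = 0.00132). Cdh20 had 83.2, 80.3, 80.6 and 99.4 CPM in control and 73.0, 66.6, 67.7 and 82.7 with thapsigargin. It was lower in 4 of 4 replicate numbers, but replicate 4 was the highest library of both groups and the groups overlapped. Its log2 fold change of -0.24 ± 0.094 did not pass the test (adjusted p = 0.0674) and did so with the block (adjusted p = 1.12e-05) or without replicate 4 (adjusted p = 0.000404). It also passed with upper-quartile scaling and without thapsigargin replicate 4 or calcium-free replicate 4. Cdh10, Cdh19 and Cdh22 passed with the block and without replicate 4, with adjusted p of 0.432, 0.576 and 0.469 in the first fit and 0.000464, 0.000777 and 0.000107 with the block. Cdh19, known from Schwann cell precursors, had 41.8, 42.1, 37.6 and 24.5 CPM in control and 35.7, 34.6, 36.4 and 21.04 with thapsigargin. Cdh6 (K-cadherin) was the single Cdh gene with a positive estimate, 0.10 ± 0.078 (adjusted p = 0.406).

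Cdh13 (T-cadherin), which lacks the cytoplasmic tail and is held in the membrane by a lipid anchor (chromosome 8, 119010150 to 120051668, plus strand), had 46.2, 50.3, 49.5 and 52.4 CPM in control and 42.9, 41.4, 40.4 and 42.8 with thapsigargin. The groups did not overlap. T-cadherin changed by -0.24 ± 0.043 on the log2 scale (adjusted p = 0.00102). The low genes Cdh17, Cdh23 and Cdh26 had log2 fold changes between -0.26 and -0.21 and did not pass the test. Cdh8, which missed the count limit, was called lower at -0.87 (adjusted p = 0.0358) on levels of 0.262 to 0.404 CPM in control and 0.114 to 0.251 with thapsigargin.

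**Figure D2:**
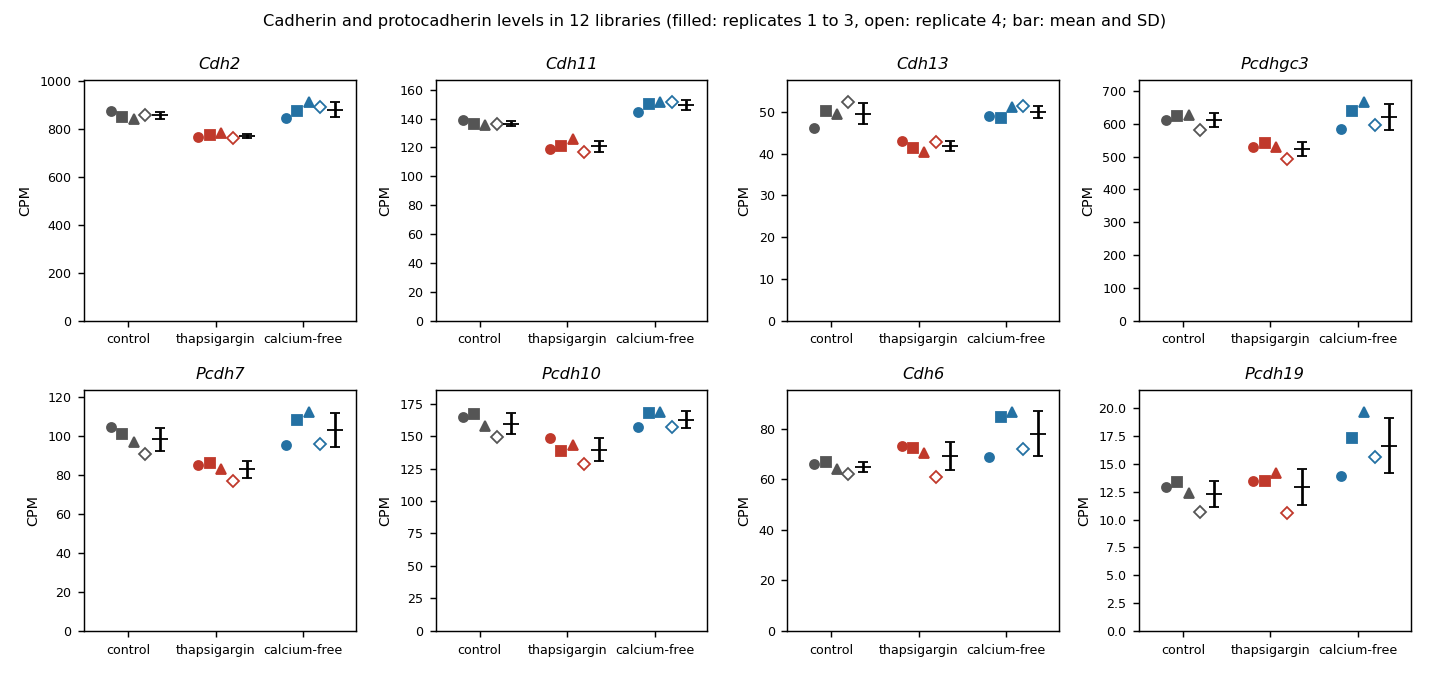
CPM of 8 genes in the 12 libraries, from 0 on each vertical axis. Points are libraries, open points are replicate 4, and bars give the mean and SD of 4 libraries; thapsigargin libraries lie below all controls for Cdh2, Cdh11, Cdh13, Pcdhgc3, Pcdh7 and Pcdh10, and calcium-free libraries lie above all controls for Cdh11, Cdh6 and Pcdh19.

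Non-clustered protocadherins are split by their tails into a delta-1 and a delta-2 group. In the first, Pcdh7 (chromosome 5, 57873487 to 58290578, plus strand) had 105, 101, 97.0 and 91.1 CPM in control and 85.4, 86.3, 83.0 and 76.9 with thapsigargin. All treated libraries were below the controls, and the log2 fold change was -0.25 ± 0.064 (adjusted p = 0.011). Pcdh10, a delta-2 protocadherin that binds the WAVE regulators of actin (chromosome 3, 45332833 to 45389014, plus strand), had 165, 167, 158 and 149 CPM in control and 149, 139, 143 and 128 with thapsigargin. The lowest control, replicate 4, was at 149.3 CPM and the highest treated library, replicate 1, at 148.8. Its log2 fold change was -0.19 ± 0.052 (adjusted p = 0.0139), a call lost without the filter on low counts.

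Pcdh1, a delta-1 protocadherin best known from airway epithelium, was the one gene of the 79 called higher than control with thapsigargin in any fit. It had 76.5, 77.3, 82.0 and 57.7 CPM in control and 88.5, 89.3, 83.1 and 60.5 with thapsigargin, and was higher in 4 of 4 replicate numbers while the groups overlapped. Its log2 fold change of 0.13 ± 0.15 did not pass at first (adjusted p = 0.568) and passed with the block (adjusted p = 0.0102) or without replicate 4 (adjusted p = 0.00251). Pcdh17 (-0.16, adjusted p = 0.595) and Pcdh20 (-0.50, adjusted p = 0.0671) were called lower with the block (adjusted p = 0.0132 and 0.0151) but not without replicate 4 (adjusted p = 0.12 and 0.0538). For Pcdh9 the log2 fold change was -0.14, with a 95% interval of -0.36 to 0.082 (adjusted p = 0.346).

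**Figure D3:**
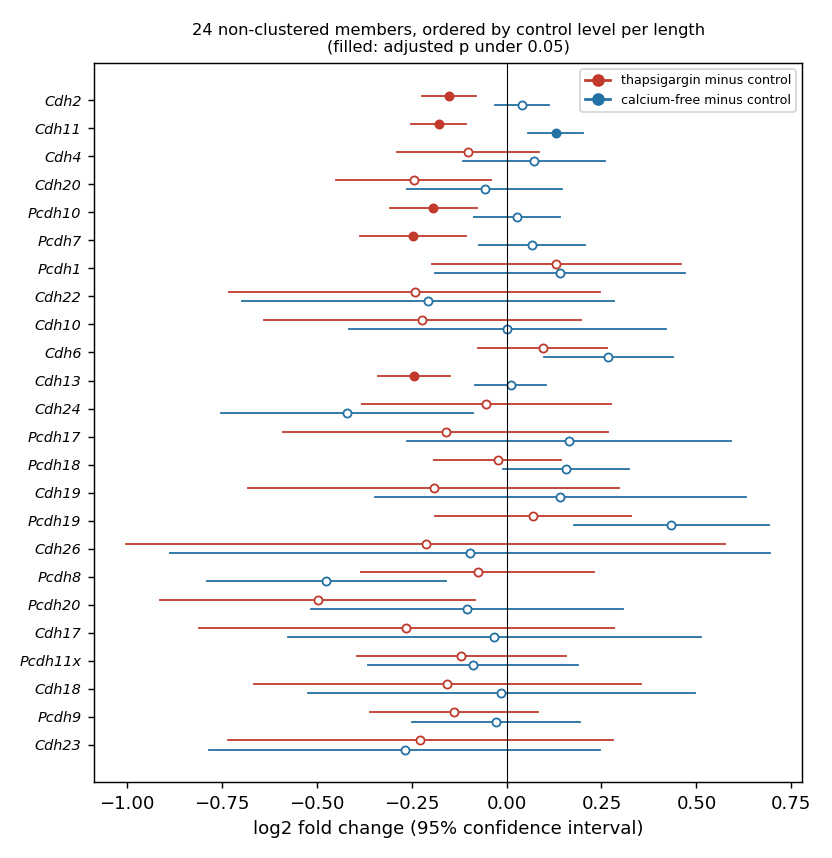
Log2 fold change of the 24 genes outside the clusters, thapsigargin minus control in red and calcium-free minus control in blue, with 95% intervals, ordered by control level per length. Filled points passed the test without a block: Cdh2, Cdh11, Pcdh10, Pcdh7 and Cdh13 are lower with thapsigargin, and Cdh11 is higher in calcium-free medium.

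The clustered genes needed a look at how their counts were shared before any change could be read. In the Pcdhg cluster (GRCm39 chromosome 18, 37794828 to 37974926) none of the deposited values was a whole number, and in the Pcdha cluster (37063338 to 37321950) 98.2% were not whole, against 27.8% of nonzero values over the whole table. In the annotated coordinates all 210 pairs of Pcdhg genes and all 91 pairs of Pcdha genes overlapped. The 20 Pcdhb genes (37427893 to 37657532), single-exon genes in textbook accounts, had 0 overlapping pairs of 190, and 79.6% of their values were not whole. Rows of the first 2 clusters also shared a common floor. A floor was defined as the lowest row of a cluster in a library; that amount, counted once for each row, made up 48.7% to 52.2% of all Pcdhg counts and 51.9% to 57.2% of all Pcdha counts of a library. The rows of these clusters are thus not separate measurements.

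Above that floor 1 gene of each cluster held most counts. Pcdhgc3 took 72.0% ± 1.29 of the Pcdhg excess in control (SD, n = 4), 71.8% with thapsigargin and 71.9% in calcium-free medium. Pcdhgc5 came next with 6.13% in control. Among alpha genes Pcdhac2 took 89.7% ± 1.46 of the excess in control, 87.4% with thapsigargin and 88.2% in calcium-free medium. Pcdha12 followed with 5.73% in control. Both leaders belong to the C-type, the isoforms with promoters outside the random choice that operates on the other variable exons. The remaining 12 alpha rows held 0.677% to 13.3% of their own counts above the floor, and the remaining 19 gamma rows 0% to 35.1%.

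**Figure D4:**
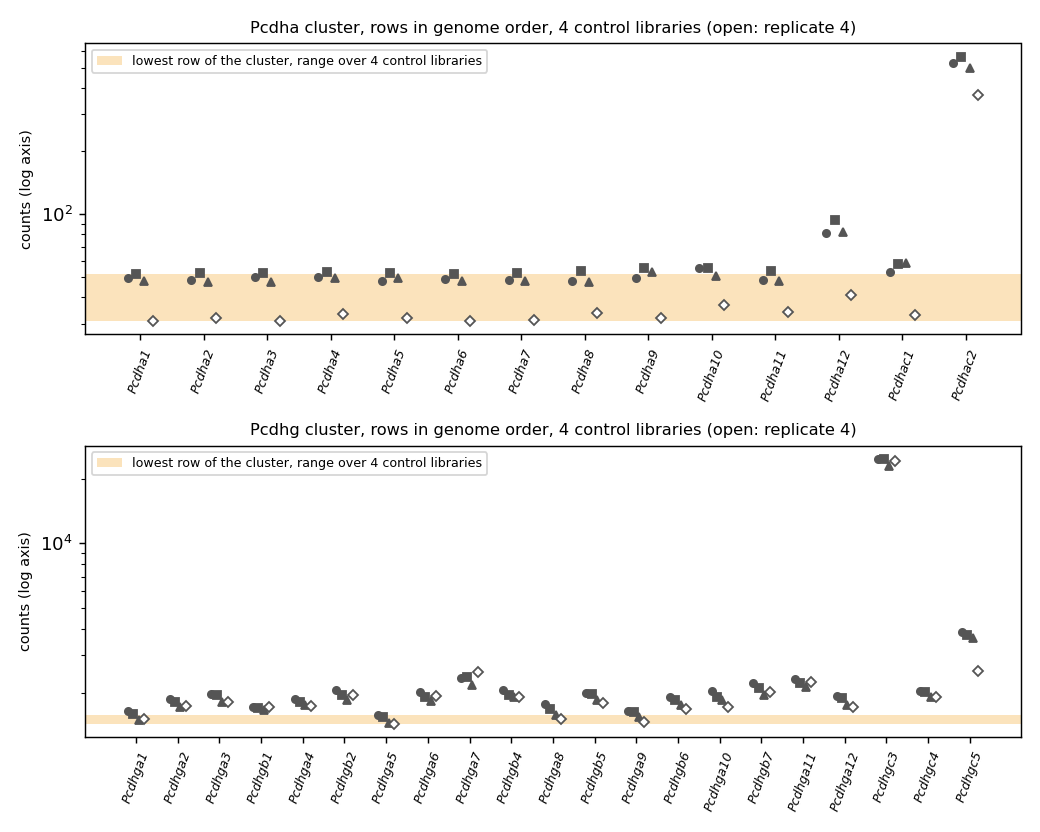
Counts of every Pcdha row and every Pcdhg row in the 4 control libraries on log axes, in genome order, with replicate 4 as open points. The orange band is the range of the lowest row of the cluster over the 4 libraries; nearly all alpha rows lie on it apart from Pcdha12 and Pcdhac2, and most gamma rows lie a little above it apart from Pcdhgc3 and Pcdhgc5.

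Under thapsigargin Pcdhgc3 fell. It had 610.4, 625, 626 and 579.9 CPM in control and 528, 541, 529 and 494 with thapsigargin. No treated library reached the lowest control, and the log2 fold change was -0.22 ± 0.049 (adjusted p = 0.00422). Of the 21 gamma rows 10 were called lower: besides Pcdhgc3 these were Pcdhgc4, Pcdhga1, Pcdhga2, Pcdhga3, Pcdhga6, Pcdhga7, Pcdhga11, Pcdhgb1 and Pcdhgb2, with log2 fold changes from -0.23 to -0.17. Leaving out single libraries ended the calls of Pcdhga1, Pcdhga2, Pcdhga3, Pcdhga6, Pcdhgb2 and Pcdhgc4, with adjusted p up to 0.121; these libraries were control replicates 1 to 3, thapsigargin replicates 2 to 4 and calcium-free replicates 1, 2 and 4. With the block all 21 were called, and without replicate 4 18; with the shared counts taken off, 9 of 20 were called with the block. Pcdhgc5 was among the 11 that were not called without it, at 95.2, 94.2, 99.0 and 60.7 CPM in control and 87.9, 88.0, 87.1 and 51.5 with thapsigargin (log2 fold change -0.15, adjusted p = 0.648, 0.00553 with the block and 0.202 without replicate 4).

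Because the rows share counts, the floor was also taken off each row. The total taken off, the floor times the number of rows, was kept as a single row. This step was chosen after the equal values were seen. Of the 21 gamma genes 20 remained testable and 5 were then called lower without the block, Pcdhgc3 (log2 fold change -0.23, adjusted p = 0.00361), Pcdhgc4 (-0.31, adjusted p = 0.0164), Pcdhga7 (-0.36, adjusted p = 0.0158), Pcdhga11 (-0.22, adjusted p = 0.0128) and Pcdhga3 (-0.40, adjusted p = 0.0381). The shared gamma floor itself had a log2 fold change of -0.17 (adjusted p = 0.0503, and 0.00025 with the block). Pcdhga5 was the lowest gamma row in every library, so this floor is a multiple of the Pcdhga5 row and holds any counts particular to that gene.

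Summed over each cluster, all 3 estimates were negative with thapsigargin. The gamma sum was 1626, 1631, 1655 and 1462 CPM in control and 1441, 1443, 1418 and 1268 with thapsigargin, a log2 fold change of -0.19 ± 0.062 (adjusted p = 0.0316). Replicate 4 was the lowest library of both groups. This call was lost when control replicate 1, 2 or 3 or thapsigargin replicate 3 or 4 was left out. The beta sum was 44.8, 44.4, 42.9 and 51.9 CPM in control and 36.1, 34.5, 35.5 and 41 with thapsigargin, with no overlap and a log2 fold change of -0.32 ± 0.089 (adjusted p = 0.0154). The alpha sum was 29.9, 32.9, 32.1 and 19.1 CPM in control and 26.2, 25.5, 25.2 and 15.3 with thapsigargin. In each replicate number the treated library was lower, but the spread was wide (log2 fold change -0.30, 95% interval -0.77 to 0.17, adjusted p = 0.33), and the fall was called with the block (adjusted p = 8.11e-06).

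Single beta genes were low, none above 9.02 CPM on average in control. Pcdhb17 fell from 4.51 ± 0.547 to 3.18 ± 0.327 CPM (SD, n = 4), which is -0.51 ± 0.13 on the log2 scale (adjusted p = 0.0121). Pcdhb22 fell from 9.02 ± 1.07 to 7.14 ± 0.262 CPM (-0.34, adjusted p = 0.0201), a call lost without control replicate 1 or 2 or thapsigargin replicate 2 or 3. The other 18 beta genes were not called, and all 20 estimates were negative. Since 79.6% of beta values were not whole, beta rows may also share counts, which was not tested. Of the 14 alpha rows 0 were called by edgeR or DESeq2, and 0 reached an unadjusted p under 0.05. With the block Pcdhac2 was the single alpha row called (log2 fold change -0.35, adjusted p = 7.04e-05, and 0.245 without the block).

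Calcium-free medium left most of these transcripts near the control level. Of the 79 genes 1 rose and 0 fell by edgeR, where 3.78% of all tested genes rose and 1.55% fell. At an unadjusted p under 0.05, 3 were higher and 3 lower. DESeq2 called 3 higher and 0 lower (6.1% and 2.48% of all genes). In 3 genes (Cdh11, Cdh6 and Pcdh19) every calcium-free library lay above every control, against 6.04% of all genes, and in 2 (Pcdh8 and Pcdhb6) below, against 4.43%. The median log2 fold change was -0.0086, against -0.0076 over all genes. With upper-quartile scaling 63 of the 79 estimates were negative and with DESeq2 scaling 39, against 49 here, so no common direction is given. With the block 6 rose and 3 fell (10.4% and 7.01% of all genes), and without replicate 4 7 rose and 1 fell (10.5% and 5.16%). Over all genes 646 rose and 265 fell, and with upper-quartile scaling 524 and 372. Leaving out thapsigargin replicate 4 or calcium-free replicate 1 gave 3 higher.

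The gene that rose was Cdh11, at 145, 149.9, 151 and 152 CPM in calcium-free medium. All 4 libraries were above all controls, and the log2 fold change was 0.13 ± 0.033 (adjusted p = 0.0437; 0.00471 with the block). This call was lost with upper-quartile scaling, without the filter on low counts, with only the pair of groups compared, and on leaving out any of 9 libraries (every control library, thapsigargin replicate 1 or 2, and calcium-free replicate 2, 3 or 4), with adjusted p up to 0.124. Cdh6 had 66.2, 67.0, 64.3 and 62.3 CPM in control and 69.0, 84.7, 86.9 and 72.3 in calcium-free medium, without overlap. A log2 fold change of 0.27 ± 0.078 did not pass (adjusted p = 0.0717) and passed with the block (adjusted p = 0.00905) or without replicate 4 (adjusted p = 0.0175).

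Pcdh19, a delta-2 protocadherin on the X chromosome mutated in a form of epilepsy, had 12.9, 13.4, 12.4 and 10.7 CPM in control and 13.9, 17.3, 19.7 and 15.6 in calcium-free medium. The groups did not overlap. The log2 fold change of 0.43 ± 0.12 missed the threshold (adjusted p = 0.0549) and passed with the block (adjusted p = 0.00109), in DESeq2, and without replicate 4 (adjusted p = 0.0128). With the block Pcdh1, Pcdh17 and Cdh19 also rose, by 0.14, 0.16 and 0.14 on the log2 scale (adjusted p = 0.0201, 0.0452 and 0.0272). Cdh22, Cdh24 and Pcdh8 fell in that fit. Pcdh8, which neuronal activity induces, had 2.03, 2.05, 1.91 and 2.07 CPM in control and 1.75, 1.16, 1.55 and 1.35 in calcium-free medium, with no overlap (log2 fold change -0.48, adjusted p = 0.0852, and 0.0173 with the block). Cdh24 and Pcdh8 did not pass without replicate 4 (adjusted p = 0.0628 and 0.0855).

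Cdh2, Pcdhgc3 and Cdh13, which fell with thapsigargin, had calcium-free means close to control. Cdh2 averaged 880.2 ± 29.2 CPM against 856 ± 14.7 in control (SD, n = 4; log2 fold change 0.04, 95% interval -0.031 to 0.11). Pcdhgc3 averaged 621 ± 39.0 CPM (log2 fold change 0.024, 95% interval -0.083 to 0.13), and Cdh13 50.0 ± 1.47 CPM (0.01, 95% interval -0.084 to 0.10). The cluster sums had log2 fold changes of -0.0038 for alpha, -0.026 for beta and 0.0097 for gamma, with adjusted p of at least 0.961.

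Since both comparisons used the same control libraries, the treatments were also tested against each other. With thapsigargin 18 of the 79 genes were lower than in calcium-free medium and 0 higher, against 13.2% lower and 14.6% higher over all tested genes (edgeR; at an unadjusted p under 0.05, 26 lower and 2 higher; DESeq2, 18 and 0, against 13.8% and 16.1%). The block gave 40 lower and 2 higher (26.9% and 22.4% of all genes). Without replicate 4 there were 32 and 1 (19.4% and 21.7%). Leaving out calcium-free replicate 2 or 3 gave 10 lower. In 18 of the 79 genes every thapsigargin library lay below every calcium-free library, and in 1 above, against 13.4% and 14.9% of all genes. Cdh11 had a log2 difference of -0.31 ± 0.033 (adjusted p = 4.99e-05), Pcdh7 -0.31 (adjusted p = 0.00325), Cdh13 -0.25 (adjusted p = 0.00105), Pcdhgc3 -0.25 (adjusted p = 0.00282) and Cdh2 -0.19 (adjusted p = 0.00102).

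Pcdh19 differed between the treatments too, by -0.36 ± 0.12 on the log2 scale (adjusted p = 0.0362), with 13.4, 13.5, 14.2 and 10.6 CPM under thapsigargin. This call was lost without thapsigargin replicate 1, 2 or 4 or calcium-free replicate 2 or 3. Cdh24 and Pcdh8 were higher with thapsigargin than in calcium-free medium in the blocked fit (adjusted p = 0.0114 and 0.0168), and without replicate 4 Cdh24 was (adjusted p = 0.0322) and Pcdh8 was not (adjusted p = 0.118). Cdh4, Cdh10, Cdh19 and Cdh20 were lower than in calcium-free medium with the block, by -0.17, -0.22, -0.33 and -0.19 (adjusted p = 0.00307, 0.000629, 4.52e-06 and 0.000212, and 0.163, 0.432, 0.308 and 0.167 without it). Pcdh17 was lower in that fit by -0.32 (adjusted p = 7.27e-05, and 0.253 without the block). Pcdhgc5 (-0.17, adjusted p = 0.612) and Cdh6 (-0.17, adjusted p = 0.124) were called with the block (adjusted p = 0.00301 and 0.0278) but not without replicate 4 (adjusted p = 0.123 and 0.196). The remaining genes gained with the block were Pcdh18, Pcdhac2, Pcdha10, Pcdhb16, Pcdhb19 and the gamma rows, of which all 21 were then lower. The gamma sum differed by -0.20 (adjusted p = 0.0283), and the beta sum by -0.30 (adjusted p = 0.0268). The beta difference was no longer called without any 1 of thapsigargin replicates 1 to 3 or calcium-free replicates 2 to 4, and the gamma difference without thapsigargin replicate 3 or 4 or calcium-free replicate 2 or 3.

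Sequence around the start sites is shown for 4 genes outside the clusters, a pair that fell with thapsigargin (Pcdh7 and Pcdh10) and a pair whose calcium-free libraries lay above all controls (Cdh6 and Pcdh19). Each window runs from 250 bases before to 50 bases after the RefSeq start site in GRCm38.p6, 5′ to 3′ on the gene's strand, and capitals mark matches to the motifs searched on both strands. Windows were matched for 16 of the 22 genes searched.
Pcdh7 (chr5:57717831-57718130, plus strand): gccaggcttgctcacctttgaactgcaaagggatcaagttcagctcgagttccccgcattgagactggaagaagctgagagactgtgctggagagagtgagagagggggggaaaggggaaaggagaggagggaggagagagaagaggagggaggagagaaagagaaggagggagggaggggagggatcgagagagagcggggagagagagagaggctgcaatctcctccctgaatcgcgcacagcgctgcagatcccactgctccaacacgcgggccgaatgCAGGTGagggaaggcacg
Pcdh10 (chr3:45378148-45378447, plus strand): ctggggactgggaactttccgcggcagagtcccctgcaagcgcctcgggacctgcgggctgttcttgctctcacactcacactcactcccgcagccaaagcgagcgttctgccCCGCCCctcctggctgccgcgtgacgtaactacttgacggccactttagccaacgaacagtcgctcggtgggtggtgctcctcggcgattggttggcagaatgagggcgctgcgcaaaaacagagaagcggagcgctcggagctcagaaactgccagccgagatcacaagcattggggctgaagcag
Cdh6 (chr15:13173626-13173925, minus strand): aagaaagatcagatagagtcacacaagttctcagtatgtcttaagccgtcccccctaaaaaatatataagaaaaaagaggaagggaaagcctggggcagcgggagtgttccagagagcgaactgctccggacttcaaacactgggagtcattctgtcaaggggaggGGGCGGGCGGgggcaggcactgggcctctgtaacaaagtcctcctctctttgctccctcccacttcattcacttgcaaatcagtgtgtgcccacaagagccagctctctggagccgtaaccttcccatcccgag
Pcdh19 (chrX:133688944-133689243, minus strand): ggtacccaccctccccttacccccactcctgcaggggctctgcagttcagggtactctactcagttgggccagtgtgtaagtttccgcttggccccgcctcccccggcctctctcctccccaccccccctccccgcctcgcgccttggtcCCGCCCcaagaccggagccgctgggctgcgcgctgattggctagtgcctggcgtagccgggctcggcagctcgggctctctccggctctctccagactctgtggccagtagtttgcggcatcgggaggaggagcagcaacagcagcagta

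The motifs were an E2 box (CAGGTG), the site of Snai and Zeb repressors of cadherins, a full cAMP response element (TGACGTCA), a GC box (GGGCGG) and a TATA box (TATAAA). In the windows shown Pcdh7 held an E2 box at +33, and Pcdh10, Cdh6 and Pcdh19 each held a GC box, Cdh6 as overlapping copies at -84 and -80. For the 16 cadherins and protocadherins a motif was counted once per gene if any window of the gene held it, while the shares over all windows count single windows. An E2 box was in 1 of the 16 genes and in 20.2% of all 32851 windows. A GC box was in 7 of 16 genes, against 35.7% of all windows. None of the 16 had the full cAMP element, which 1.79% of all windows held. A TATA box was in 1 (Pcdh8), against 13.6% of all windows. With 1 window taken per gene, the 16 had a median of 16 CpG and 59.8% G and C, against 7 and 52.7% in all windows. These are letter matches only, and windows of both pairs held GC boxes.

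Replicate 4 bore on many of these genes. Of the 79, 29 were below and 2 above all other 9 libraries in all 3 libraries numbered 4, which is 36.7% and 2.53%, against 12.3% and 11.1% of all genes. All 14 alpha rows and 6 of the 21 gamma rows were below, and rows of these clusters share counts, so they are not separate genes. Outside the clusters 8 of 24 genes were below and 1 above. Among the 20 beta genes 1 was below and 1 above. Cdh26 had 1.80 to 2.07 CPM in replicate 4 and 3.64 to 5.18 elsewhere, and Cdh19 had 21.04 to 26.1 against 34.6 to 45.9. Pcdhgc5, Pcdh17, Cdh10, Cdh22 and Pcdh1 were also below. The genes above were Cdh18 and Pcdhb19, the latter with 6.54 to 9.03 CPM against 3.75 to 5.46. Cdh2, Cdh11, Cdh13 and Pcdhgc3 overlapped between replicate 4 and the rest.

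**Figure D5:**
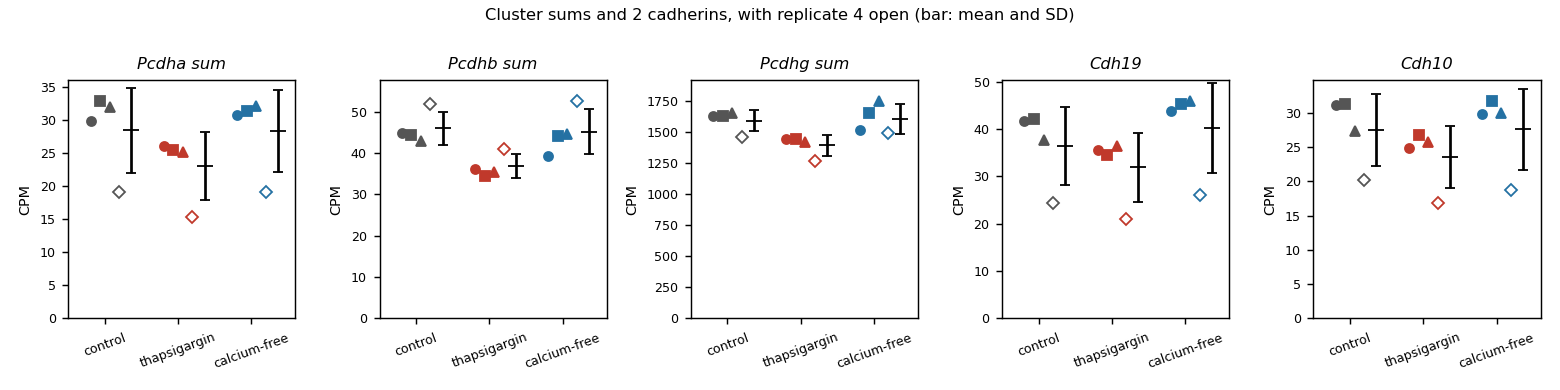
CPM of the 3 cluster sums, Cdh19 and Cdh10 in each library, from 0 on each vertical axis, with replicate 4 as open points and bars for mean and SD of 4 libraries. Replicate 4 lies low in all groups for the alpha sum, Cdh19 and Cdh10 and high for the beta sum. At each replicate number the thapsigargin library lies below the control library of the same number, though the labels do not say what a number shares.

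In control, the sum of every marker list had replicate 4 at the end of its range. Microglial markers summed to 173 CPM in control replicate 4, the lowest of 173 to 268 over the controls. Astrocyte markers (10787 CPM) and fibroblast, meningeal and mural markers likewise had their lowest control sum there (5564; range 5564 to 7503), and proliferation markers their highest (2893; range 2124 to 2893). With thapsigargin the sums ran from 144 to 204 for microglia (3 of 14 markers lower), 9706 to 11604 for astrocytes (3 lower and 1 higher of 16) and 5005 to 6291 for the fibroblast list (1 lower and 1 higher of 10). In calcium-free medium they were 167 to 239, 11053 to 12974 and 5996 to 7484. Without the block 14.8% of all genes fell and 16.4% rose with thapsigargin. With the block 12 of 14 microglial and 12 of 16 astrocyte markers were lower with thapsigargin, against 28.2% of all genes. In calcium-free medium the block gave 5 of 14 microglial markers lower, against 7.01% of all genes. Of the 16 astrocyte markers 0 were lower there and 1 was higher. The part of cell composition in the cadherin results was not tested.

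The remaining marker lists gave control sums of 1786 to 1909.6 CPM for the oligodendrocyte lineage, 413 to 442 for neurons and 1608 to 1692 for ependymal cells and progenitors. Replicate 4 was the highest control for the oligodendrocyte and ependymal lists and the lowest for the neuron and endothelial lists. With thapsigargin these 3 lists each had 1 gene higher and 1 lower, of 7, 10 and 7 tested, and the proliferation list had 1 higher and 1 lower of 13. Endothelial markers summed to 11.5 to 18.3 CPM with thapsigargin and 12.4 to 21.2 in calcium-free medium, with 0 of 6 called by edgeR with thapsigargin with or without the block, and no marker of any list had 0 counts in every library.

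Genes that work with cadherins were read from lists of the same pathway. Among 18 catenins and junction adaptors 6 rose and 1 fell with thapsigargin, with a median log2 fold change of 0.12, and 3 rose in calcium-free medium. Over all tested genes 16.4% rose and 14.8% fell with thapsigargin, and 3.78% rose and 1.55% fell in calcium-free medium, and the lists are read beside these shares. The one that fell was alpha-catenin (Ctnna1), from 531 ± 11.3 to 476 ± 14.1 CPM (-0.16, adjusted p = 0.00459). The adaptor Ajuba rose in both treatments, from 34.0 ± 0.662 CPM to 58.5 ± 1.53 with thapsigargin (0.78 ± 0.035, adjusted p = 1.08e-07) and 45.9 ± 1.37 in calcium-free medium (0.43 ± 0.035, adjusted p = 5.56e-05). Plekha7, which ties p120 to microtubules, rose by 0.52 and 0.19 (adjusted p = 4.22e-06 and 0.0296), and Shroom3, an apical actin regulator, by 0.47 and 0.30 (adjusted p = 7.12e-05 and 0.0111). The calcium-free call of Plekha7 was lost without any 1 of control replicates 1 to 3 or calcium-free replicates 2 and 3. Beta-catenin (Ctnnb1) had 1181 ± 44.5 CPM in control and 1074 ± 61.6 with thapsigargin (-0.14, adjusted p = 0.074, and 0.000502 with the block).

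Of 13 proteases and subunits that shed and cut cadherins 9 fell with thapsigargin, where 14.8% of all genes fell, with a median log2 fold change of -0.25. Adam10, the main sheddase of N-cadherin and gamma-protocadherins, fell from 259 ± 6.71 to 208 ± 2.80 CPM (-0.31 ± 0.035, adjusted p = 3.59e-05), and was at 263 ± 9.63 CPM in calcium-free medium. Adam17 fell by 0.26 and the gamma-secretase subunit Psenen by 0.25 on the log2 scale (adjusted p = 0.00038 and 0.000313). Of 16 nectins and long cadherins 4 fell with thapsigargin (14.8% of all genes; median -0.14). Celsr1, a cadherin of planar polarity, fell by 0.69, its relative Celsr2 by 0.44 and the calsyntenin Clstn1 by 0.30 (adjusted p = 0.000771, 0.00315 and 0.0018). The Celsr2 call was lost without replicate 4 (adjusted p = 0.0505). Neither list had a gene called in calcium-free medium, with or without the block.

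Of 8 repressors of cadherin genes 1 rose with thapsigargin and 1 in calcium-free medium (16.4% and 3.78% of all genes). Zeb2 rose from 66.0 ± 1.34 CPM to 100.04 ± 1.69 and 89.6 ± 6.69 (0.60 and 0.44, adjusted p = 2.9e-06 and 0.000448). Snai2 was low, at 1.08 ± 0.162 CPM in control, 1.53 ± 0.317 with thapsigargin and 0.682 ± 0.149 in calcium-free medium, and differed between the treatments by 1.16 (adjusted p = 0.00119). Tcf4 differed between them by -0.16 (adjusted p = 0.0198), a call lost without calcium-free replicate 2 or 3. With the block 3 repressors rose and 1 fell in each treatment against control (23% and 28.2% of all genes with thapsigargin, 10.4% and 7.01% in calcium-free medium). Of 14 beta-catenin targets 3 rose and 1 fell with thapsigargin (16.4% and 14.8% of all genes), and 4 and 4 with the block (23% and 28.2%). Axin2, a negative regulator of the pathway, rose from 25.2 ± 4.37 to 40.2 ± 2.76 CPM (0.67, adjusted p = 0.000391), Znrf3 rose by 0.60 and Sp5 by 0.69 (adjusted p = 3.43e-05 and 0.00753). In calcium-free medium Znrf3 rose by 0.32 (adjusted p = 0.0173), a call lost without control replicate 2 or 3 or calcium-free replicate 2 or 3.

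Among 25 protocadherin partners and regulators of the clusters 4 rose and 3 fell with thapsigargin (16.4% and 14.8% of all genes), and 9 rose and 8 fell with the block (23% and 28.2%). In calcium-free medium 1 rose (3.78%), and 5 rose and 1 fell with the block (10.4% and 7.01%). Wapl, which releases cohesin from chromatin and bears on promoter choice in the Pcdha cluster, rose by 0.35 with thapsigargin and 0.24 in calcium-free medium (adjusted p = 0.000269 and 0.0224; the latter was lost without control replicate 1, 2 or 3 or calcium-free replicate 2 or 3). The kinase Fyn fell from 201 ± 5.49 to 174 ± 3.71 CPM (-0.21, adjusted p = 0.000496) and Marcks, a membrane protein acting downstream of gamma-protocadherins, from 429.9 ± 28.0 to 362 ± 17.8 CPM (-0.25, adjusted p = 0.00277). Over all lists, the median of the 17077 tested genes was -0.047 with thapsigargin.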

How the data were processed

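Per the labels' protocols, poly-A RNA was made into libraries with a stranded kit, and featureCounts 1.6.4, STAR 2.7.2b, cutadapt 1.17 and bcl2fastq 2.20.0.422 are named with genome build GRCm39 in the submitters' processing notes. Whether strand was used in counting is not given in the sources used here. Deposited by the authors was 1 table of estimated counts per gene, not normalised, in which 27.8% of nonzero values were not whole within 0.001. They were rounded, and 0 columns belonged to other samples. Reads of overlapping genes can be split between rows, and if strand was not used a gene and its antisense partner cannot be told apart.

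Counts were tested with edgeR 4.0.16 (R 4.3.3, limma 3.58.1; TMM scaling, filterByExpr with a minimum count of 10, robust quasi-likelihood fit with 1 mean per group over all 12 libraries), and p-values were Benjamini-Hochberg adjusted over 17077 genes. CPM are counts per 1000000 of the TMM-scaled total. Intervals are 95% intervals of the fitted log2 fold change. Data were simulated for all 12 libraries (16935 genes), with changes placed in the thapsigargin libraries and tested against control without a block. Of 50 genes changed 1.5-fold 84% were recovered, and of 50 changed 2-fold 98%. Of 50 changed by 0.20 on the log2 scale, about the size of many changes reported here, 6% were, and 10 unchanged genes were called. The changed genes were drawn at random above a count limit. These shares therefore do not give the recovery of the genes named here or of the other fits. Alternatives were the replicate block, upper-quartile scaling, DESeq2 1.42.0, no filter on low counts, the 2 groups compared alone, and leaving out libraries. Removing the part shared by cluster rows was added after seeing the data.

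Samples with the same replicate number deviated together: the correlation of their deviations from the group means was 0.159 to 0.392 for replicates 1 to 3 and 0.814 to 0.836 for replicate 4. Each exceeded 0.1, the criterion for treating the numbers as pairs, but different numbers among replicates 1 to 3 correlated by 0.238 to 0.412, so that only replicate 4 stood out by number. The labels do not say what a number shares.

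Members, gene lists and named genes were chosen with earlier results of these data known. Named were the genes called in a comparison, the 6 highest per length in control, a set of known cadherins and protocadherins (Cdh1, Cdh2, Cdh4, Cdh5, Cdh10, Cdh11, Cdh13, Cdh20, Pcdh1, Pcdh7, Pcdh9, Pcdh10, Pcdh17, Pcdhgc3), those next to the count limit, and the 3 genes of each partner list whose p over the groups was smallest. All other named genes, such as Cdh6, Cdh19, Cdh22, Pcdh8, Pcdh20, Cdh26, Pcdhac2, Ctnna1 and Ctnnb1, were named after their values were seen. Nothing in the labels ties single libraries to single mice, so p-values measure the spread between these libraries.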

Additional observations from a re-analysis of the deposited data

Results flagged for a closer look

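In 14 of 84 groups of 4 libraries examined, 1 library lay far outside the other 3, and in all 14 that library was replicate 4. For independent groups chance gives about 1 in 20. These groups were not independent, since cluster rows share counts and the cluster sums contain them, and many genes were named because they were called. In control, replicate 4 was low for Pcdhgc5 (60.7 CPM, others 94.2 to 99.0), Pcdhga3 (43.3, others 49.2 to 49.6), Pcdhga2 (41.5, others 46.0 to 46.8), Pcdhga1 (36.3, others 40.4 to 40.9) and the gamma sum (1462, others 1626 to 1655), and high for Cdh20 (99.4, others 80.3 to 83.2).

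With thapsigargin replicate 4 was low for Pcdhgc5 (51.5 CPM, others 87.1 to 88.0), Pcdhgb1 (35.4, others 38.1 to 38.6), Pcdh17 (21.9, others 33.3 to 35.5), the alpha sum (15.3, others 25.2 to 26.2) and the gamma sum (1268, others 1418 to 1443), and high for Cdh4 (196.8, others 162 to 164). In calcium-free medium it was low for Cdh10 (18.8 CPM, others 29.9 to 31.7) and the alpha sum (19.2, others 30.9 to 32.2).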

How the results depend on the processing

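No called gene or called cluster sum changed direction under the alternatives; the calcium-free cluster sums, which were not called, changed sign on leaving out libraries. Over all genes the thapsigargin calls turned from 2800 higher and 2531 lower to 3920 and 4817 with the block and 2609 and 3241 with upper-quartile scaling. With the replicate block the cadherin and protocadherin genes called were 1 higher and 40 lower for thapsigargin against control, 6 and 3 for calcium-free against control, and 2 and 40 for thapsigargin against calcium-free, and the alpha sums were called at -0.31 and -0.30. The block ended no call of a named gene and changed no call of a cluster sum other than alpha. In the partner lists it gave, for thapsigargin against control, 9 catenins and adaptors higher and 3 lower. Of the nectins and long cadherins 5 were lower, and of the proteases and subunits 10. Repressors gave 3 higher and 1 lower, beta-catenin targets 4 and 4, and protocadherin partners 9 and 8. Over all genes 23% were higher and 28.2% lower in that fit. For calcium-free against control the block gave 6 catenins, 3 repressors, 3 beta-catenin targets and 5 protocadherin partners higher. Lower were 1 repressor and 1 protocadherin partner, against 10.4% higher and 7.01% lower over all genes. For thapsigargin against calcium-free the block gave 6 catenins and adaptors higher and 3 lower. Of the nectins and long cadherins 9 were lower, and of the proteases and subunits 9. Repressors gave 2 higher and 2 lower, beta-catenin targets 4 and 3, and protocadherin partners 6 and 10. Over all genes 22.4% were higher and 26.9% lower.

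Calcium-free genes called higher were 0 with upper-quartile scaling, 3 with DESeq2, 0 without the filter on low counts and 0 with only the pair of groups compared. Without that filter, when 29089 genes were tested, 7 genes were lower with thapsigargin and 10 lower than in calcium-free medium, and the gamma sums at -0.16 and -0.17 were no longer called. With only the pair of groups, 10 were lower than in calcium-free medium and that gamma sum at -0.19 was not called. The cause of these moves was not tested.

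Leaving out libraries gave 0 to 1 higher and 10 to 34 lower for thapsigargin against control, 0 to 7 higher and 0 to 1 lower for calcium-free against control, and 0 to 1 higher and 10 to 32 lower for thapsigargin against calcium-free. The alpha sum ranged from -0.46 to -0.15 for thapsigargin against control and from -0.44 to -0.15 against calcium-free, the beta sum from -0.38 to -0.26 and from -0.36 to -0.20, and the gamma sum from -0.23 to -0.15 in both. For calcium-free against control they ranged from -0.15 to 0.14, -0.11 to 0.037 and -0.033 to 0.038. Depth limits the low genes. Most fold changes called here are near the log2 change of 0.20, of which 6% were recovered in simulation for randomly drawn genes without a block. Recovery was not worked out for the genes called here or for the blocked fits.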
